A study of Dichotomyctere nigroviridis with 22 samples.

Results

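The membrane progestin receptor genes of the green-spotted puffer (Dichotomyctere nigroviridis), with the progesterone receptor membrane component genes, were examined in hypothalamus and ovary. They were taken as every gene of the deposited tables whose symbol begins with paqr5 to paqr9, pgrmc1 or pgrmc2, in either case of letter. The rule found 8 genes of the 20108 listed in either organ, and all 8 were listed in both organs, among 19979 genes in hypothalamus and 19346 in ovary. Vitellogenic females received into the muscle either puffer phoenixin-14 (PNX-14), a peptide studied as a hypothalamic regulator of reproduction, at a dose of 100 ng for each g of fish, or its vehicle, and RNA was sequenced 24 h later. The groups were 6 control hypothalami (HC), 6 hypothalami of PNX-14 fish (HT), 5 control ovaries (OC, replicates 1, 2, 3, 5 and 6) and 5 ovaries of PNX-14 fish (OT, replicates 2 to 6). The vehicle is saline in the submitters' description and sterile water in the study's methods, which also differ on body weight and on whether whole ovaries or biopsies were taken. Each organ was sequenced as a mixture of its cell types, at 1 dose and 1 time.

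In fish, progestins made by the follicle trigger the oocyte to resume meiosis, and they act at the oocyte surface rather than through the nucleus. The PAQR proteins are multi-pass membrane proteins named for progestins and adipoQ, and those coded by paqr5 to paqr9 are the membrane progestin receptors (mPR) gamma, delta, alpha, beta and epsilon. In fish oocytes, mPR alpha is known for coupling to inhibitory G proteins and lowering cyclic AMP. Pgrmc1 and Pgrmc2 belong to another family, that of cytochrome b5-like haem-binding proteins, and are known as partners of cytochrome P450 enzymes and of progestin signalling in ovarian cells.

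The mPR alpha gene was paqr7b (ENSTNIG00000009670, chromosome 8, 5810417 to 5811475), and the mPR beta gene was paqr8 (ENSTNIG00000001524, chromosome 14, 1183695 to 1184786). The mPR gamma gene was paqr5a (ENSTNIG00000009556, chromosome 5, 10539285 to 10542264), described in the files as gamma-B. The symbol paqr6, for mPR delta, stood on 2 gene models on unplaced sequence: a long one of 1014 bases (ENSTNIG00000010302, 28931137 to 28934559) and a short one of 609 bases (ENSTNIG00000001968, 46425017 to 46426727). PAQR9, for mPR epsilon (ENSTNIG00000001564, unplaced, 76829749 to 76830658), carried a description as family member 6, at odds with its symbol, so that its name is uncertain. The other genes were pgrmc1 (ENSTNIG00000007637, chromosome 7, 10857141 to 10858641) and pgrmc2 (ENSTNIG00000012399, chromosome 10, 12755745 to 12758376). Coordinates are those of the files, which were made on the Ensembl puffer genome TETRAODON 8.0. Because paqr6 stood on 2 models and shares its description with PAQR9, reads may be split or shared among these 3 genes. A gene described as mPR alpha-B had no symbol and fell outside the rule (ENSTNIT00000017249, chromosome 21, 5492864 to 5493799).

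Counted reads per library ranged from 9140910 to 12729314 in hypothalamus and from 11756975 to 15735216 in ovary. Neuron markers summed to at least 3217 FPKM in every hypothalamus and at most 83.1 in every ovary, and the 15 oocyte marker genes to at least 18510 FPKM in every ovary, as their labels require. FPKM is reads per length of gene, scaled to the total of counted reads, the only scale used here to set genes beside each other. Some hypothalami also held oocyte transcripts. The median oocyte gene stood at 7.53% to 15.8% of its mean level in control ovaries in 5 hypothalami (HC replicates 1, 2 and 5, HT replicates 3 and 4) and at 0.256% to 3.24% in the other 7. Organ differences of the receptor genes called higher in ovary are therefore also given on the 7 hypothalami under 5%.

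The RNA of the receptor genes stood at different levels, and in a different order, in the 2 organs. In control hypothalami, pgrmc1 (84.7 ± 18.2 FPKM, SD, n = 6), paqr7b (72.8 ± 6.91) and pgrmc2 (55.8 ± 10.7) led, followed by the paqr6 long model (28.7 ± 4.44), PAQR9 (17.7 ± 5.78) and the paqr6 short model (11.7 ± 8.25). Both paqr8 (1.00 ± 0.587) and paqr5a (0.474 ± 0.247) were near the lower end of all genes, above 12.3% and 7.91% of those with any reads. In control ovaries, pgrmc2 (183 ± 38.7, n = 5) and pgrmc1 (134 ± 28.0) led, above 96.0% and 93.7% of genes, followed by the paqr6 long model (36.6 ± 4.69), the paqr6 short model (17.5 ± 8.54) and paqr8 (7.25 ± 2.30). PAQR9 (1.31 ± 1.11), paqr7b (0.589 ± 0.566) and paqr5a (0.464 ± 0.559) came last. Neighbours in the hypothalamic order overlapped between libraries except pgrmc2 and the paqr6 long model. In the ovarian order, pgrmc1 did not overlap the paqr6 long model, nor the long model the short one, nor paqr8 PAQR9.

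**Figure D1:**
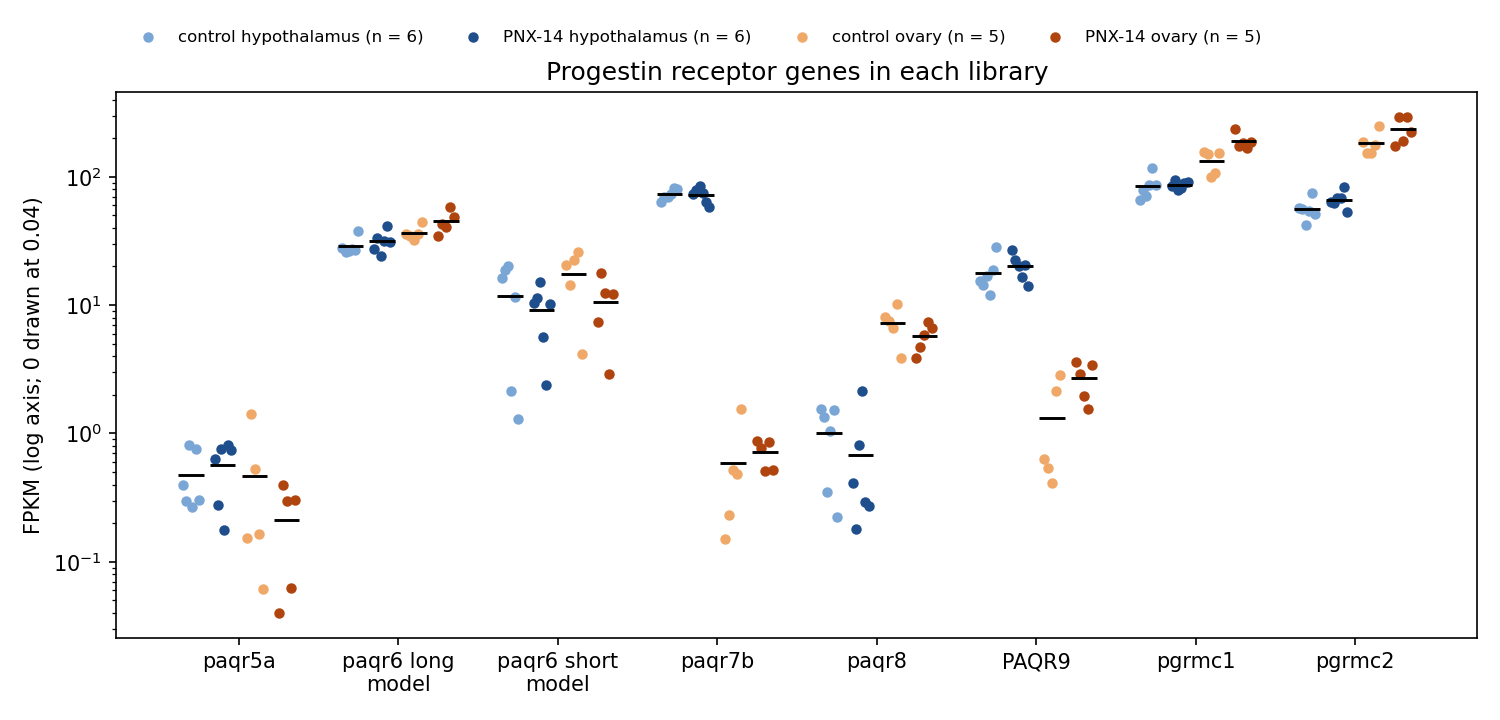
FPKM on a log axis for the 8 genes, with 1 point per library, black bars for group means, blue for hypothalamus and orange for ovary (a value of 0 is drawn at 0.04). The paqr7b points lie between 58.3 and 85.0 FPKM in all 12 hypothalami and at or below 1.56 in all 10 ovaries.

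The make-up of the PAQR receptors differed accordingly. Of the summed FPKM of the 6 PAQR genes, paqr7b made up 55.1% ± 4.57 in HC and 0.966% ± 1.01 in OC. The paqr6 long model made up 21.7% ± 2.57 and 58.2% ± 11.8, the paqr6 short model 8.89% ± 6.31 and 26.8% ± 11.7, paqr8 0.777% ± 0.457 and 11.2% ± 2.76, and PAQR9 13.2% ± 3.19 and 2.08% ± 1.85. The summed level itself was 132 ± 11.3 FPKM in HC and 63.7 ± 6.97 in OC. Pgrmc2 was 39.8% ± 3.57 of the pgrmc pair in HC and 57.8% ± 5.24 in OC. In PNX-14 fish, paqr7b made up 53.7% ± 3.49 of the PAQR sum in hypothalamus and 1.13% ± 0.407 in ovary.

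Of the 8 genes, 7 passed the filter on low counts over both organs (paqr5a did not), and 6 of these 7 differed between organs in control fish, where 83.5% of 17840 genes tested did so. This is near the background. Paqr7b passed the filter only through hypothalamus and paqr8 only through ovary. Their differences between organs were therefore in part set by the filter, here and in PNX-14 fish. Of the 7 tested, 4 were called higher in ovary (39.2% of all genes tested) and 2 lower (44.3%). Among all genes called, 46.9% were higher in ovary. The test was edgeR's quasi-likelihood test over all 22 libraries, with Benjamini-Hochberg adjustment at 0.05. The median log2 difference was 0.95 over the 7 genes and -0.18 over all genes. The same 6 genes passed, in the same directions, in PNX-14 fish (84.6% of all genes, 39.4% higher and 45.2% lower), which are other libraries of the same organs. Scaling between organs this different shifts every gene alike: the median of all genes moved from -0.18 to -0.33 with size factors of relative log expression and to -0.54 with library totals, and the 6 genes kept their direction and passed under each. In whole-organ RNA, fewer cells that express a gene and less of its RNA per cell cannot be told apart.

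**Figure D2:**
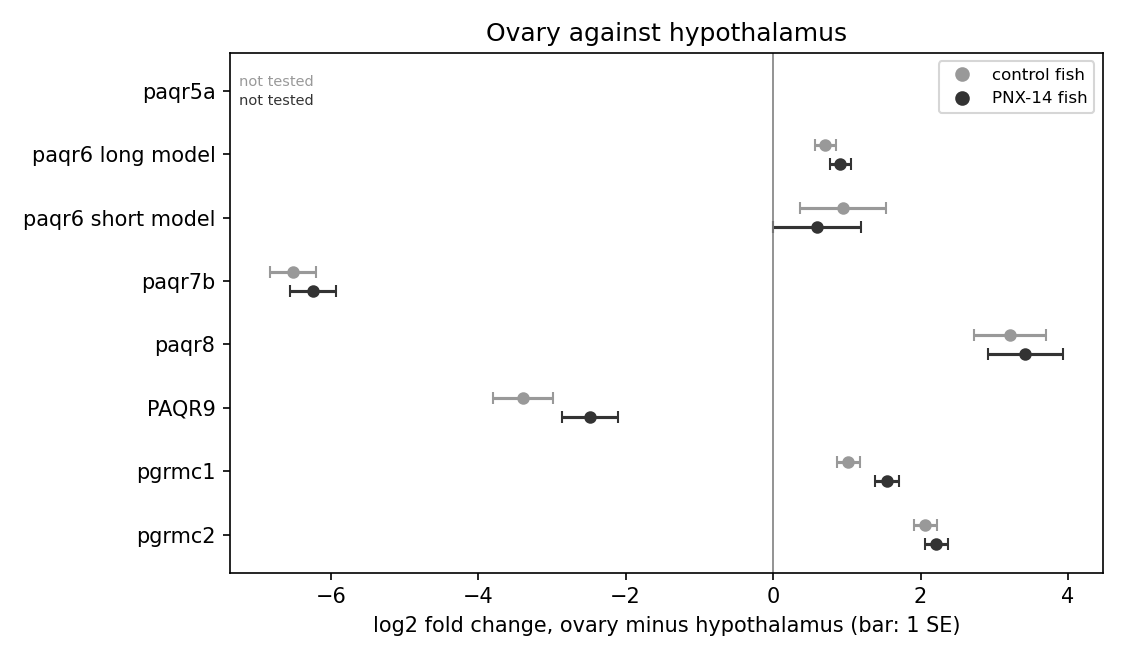
Log2 fold change of ovary over hypothalamus for each gene in control fish (grey) and PNX-14 fish (black), from edgeR, with bars of 1 SE. The values run from -6.51 for paqr7b to 3.21 for paqr8 in controls, and paqr5a was too low to test.

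Like a second gene, given below, paqr7b is described as an mPR alpha, the receptor known for triggering maturation in fish oocytes. Which of them acts in puffer oocytes was not tested. Paqr7b was higher in hypothalamus than in ovary, the only organs sequenced. It ranged from 63.4 to 81.7 FPKM in HC (median 71.5) and from 58.3 to 85.0 in HT (median 73.9). In the 5 control ovaries it stood at 0.151, 0.231, 0.520, 0.482 and 1.56 FPKM, from 2, 3, 7, 6 and 26 reads. In the 5 PNX-14 ovaries it stood at 0.881, 0.777, 0.513, 0.864 and 0.520 FPKM, from 7 to 14 reads. No ovary overlapped any hypothalamus, which held for 66.8% of all genes tested in controls and 73.4% in PNX-14 fish on this scale. The ovarian level was 91.2-fold lower in controls (log2 difference -6.51, SE 0.32, adjusted p = 1.57e-14, edgeR) and 75.9-fold lower in PNX-14 fish (-6.25, SE 0.31, adjusted p = 2.44e-14, edgeR). Of all genes tested in controls, 5.87% lay further toward hypothalamus. Since paqr7b passed the filter through the hypothalamus and not within ovary, the size of these differences rests on few ovarian reads. The highest ovary was OC replicate 6, and without it the control difference was -7.33. That library also had the highest summed neuron marker level among ovaries, 83.1 FPKM against 12.8 to 19.0 in the other 9, although its median neuron gene was at 0.106% of the control hypothalamus, within the range of the others (0% to 0.891%), and a single gene, syn2a, picked out after the values were seen, gave most of the sum. The part of brain RNA in the ovarian paqr7b reads was not tested. The second gene described as an mPR alpha, the one with no symbol, was low in both organs, at 1.203 ± 0.394 FPKM in OC, 1.398 ± 0.653 in OT, 1.73 ± 1.89 in HC and 1.11 ± 0.527 in HT.

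The mammalian gene PAQR9 codes for an mPR of nervous tissue, but that name is uncertain here, given the description as family member 6. The puffer gene with this symbol also ran higher in hypothalamus. It ranged from 12.03 to 28.5 FPKM in HC (median 16.1) and from 14.2 to 26.8 in HT (median 20.3). The control ovaries held 0.633, 0.536, 0.414, 2.13 and 2.85 FPKM, and the PNX-14 ovaries 3.57, 2.93, 1.94, 1.55 and 3.42. All ovaries were below all hypothalami, and the organs did not overlap in FPKM for 66.8% of all genes in controls and 73.4% in PNX-14 fish. The ovary was 10.5-fold lower in controls (-3.39, SE 0.40, adjusted p = 5.63e-08, edgeR) and 5.61-fold lower in PNX-14 fish (-2.49, SE 0.38, adjusted p = 2.25e-06, edgeR).

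The mPR beta gene paqr8, a second receptor linked to maturation in fish oocytes, had the opposite order. Control ovaries held 8.12, 7.58, 6.59, 10.1 and 3.85 FPKM, and PNX-14 ovaries 3.87, 4.75, 5.85, 7.36 and 6.66. Hypothalami ranged from 0.221 to 1.54 FPKM in HC (median 1.19) and from 0.180 to 2.12 in HT (median 0.350), below every ovary. A lack of overlap between organs held for 66.8% of all genes in controls and 73.4% in PNX-14 fish. Since paqr8 passed the filter through the ovary and not within hypothalamus, the size of the organ difference rests on few hypothalamic reads. The ovary was 9.26-fold higher in controls (3.21, SE 0.49, adjusted p = 2.57e-06, edgeR) and 10.7-fold higher in PNX-14 fish (3.42, SE 0.51, adjusted p = 1.55e-06, edgeR). On the 7 hypothalami under 5% oocyte level these differences were larger, 4.15 and 4.70 on the log2 scale, and without HT replicate 4 the second was 4.21.

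The hypothalamic reads of paqr8 moved with the oocyte transcripts. It stood at 0.815 to 2.12 FPKM (median 1.54) in the 5 hypothalami with oocyte genes at 5% or more, from 9 to 25 reads, and at 0.180 to 1.04 FPKM (median 0.292) in the other 7, from 2 to 12 reads. HC replicate 4, with 1.04 FPKM at an oocyte level of 2.19%, was the 1 library of the 7 that reached into the range of the 5. As a percentage of the control ovary mean in FPKM, paqr8 was at 11.2% to 29.3% in the 5. The oocyte genes were at 7.53% to 15.8% there, on the other scale of CPM normalized for library composition. These percentages are therefore not directly comparable. The part of egg RNA in these reads was not tested further. By contrast, paqr7b did not follow the oocyte level, at 63.4 to 85.0 FPKM in the 5 hypothalami and 58.3 to 79.7 in the 7.

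**Figure D3:**
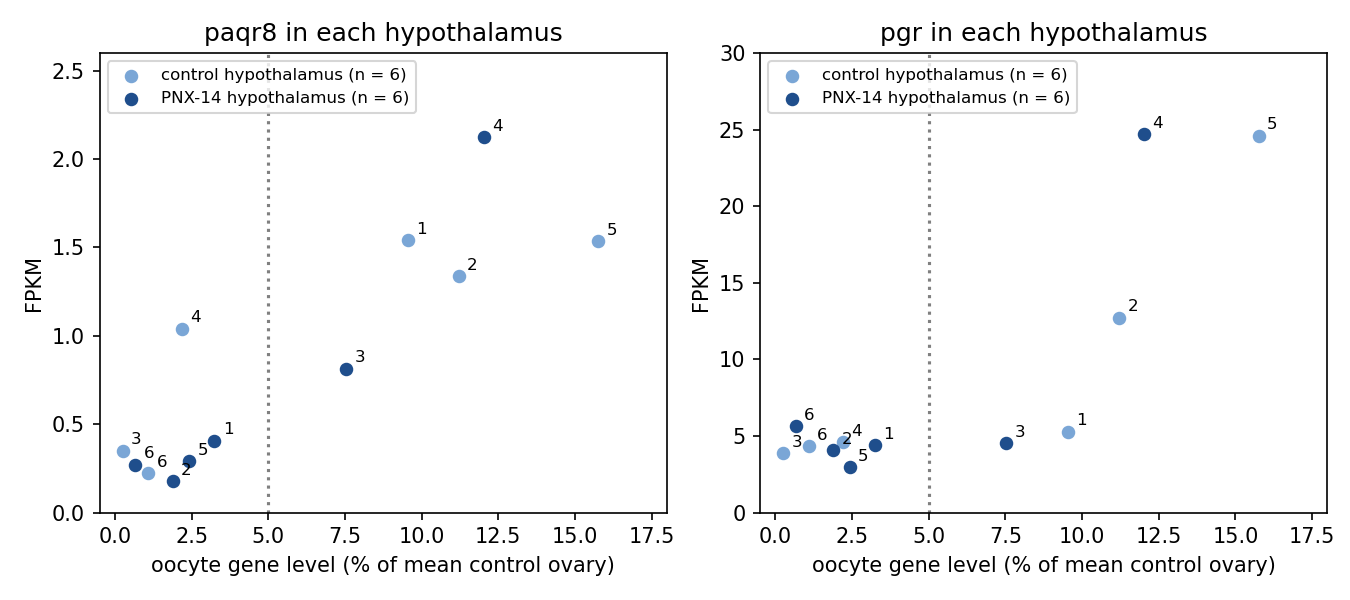
FPKM of paqr8 (left) and of the nuclear progestin receptor gene pgr (right) in each of the 12 hypothalami against the level of oocyte genes as a percentage of the mean control ovary, with replicate numbers and a dotted line at 5%. Right of the line paqr8 lies between 0.815 and 2.12 FPKM, and pgr between 4.53 and 24.7.

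Both pgrmc genes, which code for haem-binding partners of P450 enzymes, were higher in ovary. Pgrmc2 ranged from 41.9 to 74.6 FPKM in HC (median 55.1) and from 53.3 to 82.9 in HT (median 66.0), against 186, 153, 153, 176 and 247 in the control ovaries and 174, 291, 190, 291 and 224 in the PNX-14 ovaries. Pgrmc2 did not overlap between organs, which held for 66.8% of all genes in controls and 73.4% in PNX-14 fish. Its ovarian level was 4.19-fold higher in controls (2.07, SE 0.16, adjusted p = 3.11e-11, edgeR) and 4.64-fold higher in PNX-14 fish (2.21, SE 0.16, adjusted p = 9.3e-12, edgeR). On the 7 hypothalami under 5% oocyte level these were 2.30 and 2.27 on the log2 scale. With library totals as the scale they were smaller, 1.71 and 1.82.

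Pgrmc1 ranged from 66.4 to 118 FPKM in HC (median 82.7) and from 78.2 to 94.0 in HT (median 86.9). Control ovaries held 157, 151, 99.7, 107 and 154 FPKM, of which the lower ones overlapped HC replicate 5 (118). PNX-14 ovaries held 234, 174, 185, 167 and 186 and did not overlap HT, which held for 73.4% of all genes in PNX-14 fish. The ovary was 2.03-fold higher in controls (1.02, SE 0.16, adjusted p = 2.66e-06, edgeR) and 2.92-fold higher in PNX-14 fish (1.54, SE 0.16, adjusted p = 4.18e-09, edgeR). Without the 5 hypothalami, these were 1.12 and 1.52 on the log2 scale. With library totals as the scale they were smaller, 0.66 and 1.13.

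The paqr6 long model, for the mPR delta, was the PAQR gene with the most even level across organs among those called. It ranged from 26.0 to 37.7 FPKM in HC (median 27.1) and from 24.1 to 41.2 in HT (median 31.4), against 35.5, 34.5, 32.4, 35.9 and 44.6 in OC and 34.4, 42.8, 40.9, 58.1 and 49.0 in OT. The groups overlapped on this scale, and the difference was 0.70 in controls (SE 0.14, adjusted p = 9.26e-05, edgeR) and 0.91 in PNX-14 fish (SE 0.14, adjusted p = 3.24e-06, edgeR). On the 7 hypothalami under 5% oocyte level these were 0.66 and 0.87. With library totals as the scale the control difference was 0.35 (adjusted p = 0.0373, edgeR).

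The paqr6 short model did not pass the test between organs (0.95, SE 0.59, adjusted p = 0.138 in controls and 0.60, SE 0.60, adjusted p = 0.351 in PNX-14 fish, edgeR). With the replicate number as a block it was called in controls (0.89, SE 0.30, adjusted p = 0.0146, edgeR). It varied more from library to library than the other genes with more than 10 FPKM. In HC it was 16.3, 18.7, 20.1, 2.14, 11.6 and 1.30 FPKM for replicates 1 to 6, and in HT 10.4, 11.3, 15.2, 5.69, 2.40 and 10.2. In OC it was 20.6, 14.4, 22.3, 26.0 and 4.17, and in OT 7.38, 17.7, 12.4, 2.90 and 12.1. Replicate 6 was the lowest control and replicate 5 the lowest PNX-14 library in each organ. Both organs came from the same set of fish, which the fits between organs treat as independent libraries, since the labels do not state that equal numbers are the same fish.

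Across the 10 numbers present in both organs, the short model in hypothalamus and ovary had a Pearson r of 0.88 (permutation p = 0.00357, adjusted over 7 genes p = 0.025) and a Spearman rho of 0.79 (permutation p = 0.00841, adjusted p = 0.0589). Without the 2 hypothalami farthest from the median, r was 0.52, so that the relation rests in part on those libraries. On deviations from group means r was 0.87. Among all genes compared in this way, 0.235% had an r at least as high. For the other 6 genes the adjusted permutation p for r was at least 0.228.

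Where the short model was lowest, the long model was highest. This held for replicate 6 in HC and OC and for replicate 5 in HT and OT, in each case the lowest short and the highest long value of the group. The short model made up 3.34% and 5.52% of the FPKM of both models in the 2 hypothalami and 8.55% and 4.75% in the 2 ovaries, against as much as 43.2% in HC replicate 3 and 42.0% in OC replicate 5. HC replicate 4 was an exception, with the short model at 2.14 FPKM and the long one at 27.5. Over the 12 hypothalami the models had a Pearson r of -0.70 and a Spearman rho of -0.72, and r was -0.61 without the 2 libraries farthest from the median and -0.68 on deviations from group means. Over the 10 ovaries r was -0.64 and rho -0.56, and r was -0.43 without the 2 farthest libraries and -0.51 on deviations from group means. The relation was noticed in these values, so it is given as a description, without its permutation p-values. Reads shared between the models could not be examined from the tables, and their part in this relation was not tested.

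**Figure D4:**
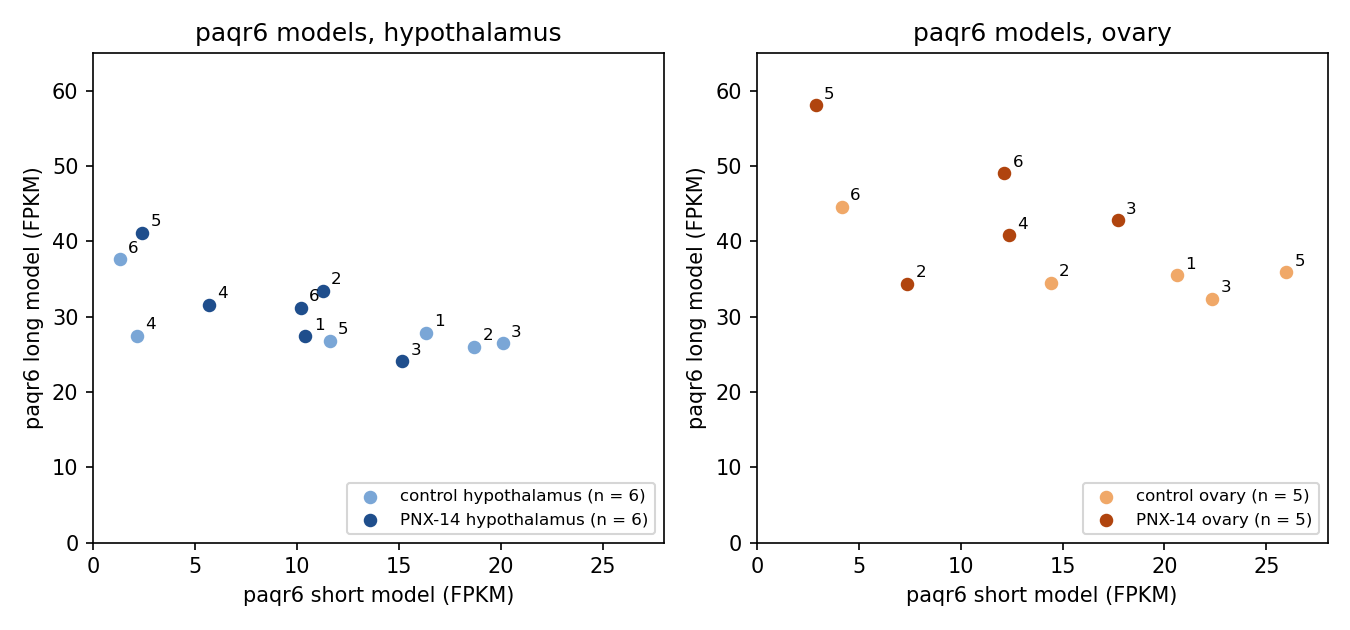
FPKM of the paqr6 long model against the short model in the 12 hypothalami (left) and 10 ovaries (right), with replicate numbers beside the points. The 2 libraries with the short model at its group's lowest in each panel, at 1.30 and 2.40 FPKM on the left and 4.17 and 2.90 on the right, have the highest long model values of their groups.

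The mPR gamma gene paqr5a was close to the detection limit everywhere. It ranged from 3 to 10 reads in HC, 2 to 8 in HT, 1 to 18 in OC and 0 to 5 in OT. The 0 was in OT replicate 2, where a count of 0 of 11794062 reads allows up to 0.245 FPKM (3 reads, counting error only). No difference between groups of this gene was detected at this depth. With no filter, ovary minus hypothalamus was 0.34 in controls (SE 0.70, adjusted p = 0.667, edgeR) and -0.98 in PNX-14 fish (SE 0.75, adjusted p = 0.233, edgeR).

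PNX-14 and control fish were compared for these genes within each organ, 24 h after injection. In ovary, 6 of the 8 genes passed the filter (paqr5a and paqr7b did not) and 0 of 6 passed the test, as did 2 of 14777 genes in all (0.0135%, edgeR). At an unadjusted p below 0.05 there was 1 of the 6, pgrmc1, where 7.99% of all genes were. Of the 6, 4 had a positive and 2 a negative difference, with a median of 0.31 on the log2 scale against -0.02 over all genes.

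Pgrmc1 was at 99.7 to 157 FPKM in the control ovaries and 167 to 234 in the PNX-14 ovaries. The groups did not overlap in FPKM, which held, with PNX-14 higher, for 0.968% of all genes, and they did overlap in CPM normalized for library composition. The difference was 0.49 (SE 0.17, 1.402-fold, adjusted p = 0.564, edgeR) and did not pass the test. With the level of the oocyte markers as a term it was 0.44 (adjusted p = 0.823, edgeR), and over 17 alternative settings it stayed between 0.37 and 0.57, with adjusted p from 0.19 to 0.898. The lowest came from edgeR with replicate number as a block, which pairs different fish that share a number. The other differences in ovary were 0.34 for pgrmc2 (SE 0.17, adjusted p = 0.646), 0.28 for the paqr6 long model (SE 0.15, adjusted p = 0.677), 1.03 for PAQR9 (SE 0.52, adjusted p = 0.668), -0.74 for the paqr6 short model (SE 0.48, adjusted p = 0.745) and -0.37 for paqr8 (SE 0.27, adjusted p = 0.774, edgeR), and all these groups overlapped. PAQR9 rested on 4 to 34 reads per control ovary and 18 to 33 per PNX-14 ovary. The low genes gave -1.17 for paqr5a (SE 0.94) and 0.26 for paqr7b (SE 0.60) when tested with no filter.

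In hypothalamus 6 of the 8 genes passed the filter (paqr5a and paqr8 did not) and 0 of 6 passed the test, as did 0 of 17126 genes (0%, edgeR). None of the 6 had an unadjusted p below 0.05, where 3.9% of all genes did, and DESeq2 called 4 genes in all and no gene of the 6. The difference was 0.25 for pgrmc2 (SE 0.14, adjusted p = 0.979, edgeR) and 0.40 on the 7 hypothalami under 5% oocyte level (SE 0.17, adjusted p = 0.653, edgeR). It was 0.19 for PAQR9 (SE 0.21), 0.13 for the paqr6 long model (SE 0.14), 0.03 for pgrmc1 (SE 0.13) and -0.34 for the paqr6 short model (SE 0.61). For paqr7b it was -0.01 (SE 0.10, adjusted p = 0.997, edgeR). The groups overlapped for all 6. With no filter, paqr8 gave -0.54 (SE 0.63) and paqr5a 0.24 (SE 0.50). The 7 hypothalami under 5% oocyte level, with which paqr8 moved, were 3 control and 4 PNX-14 libraries.

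**Figure D5:**
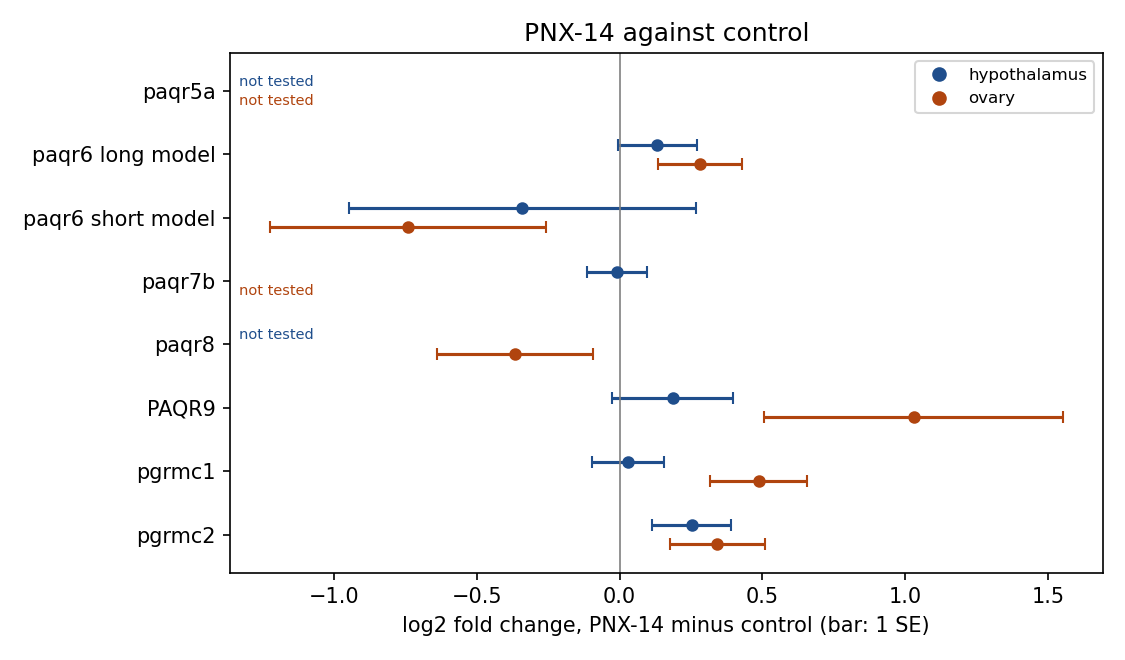
Log2 fold change of PNX-14 over control fish for each gene in hypothalamus (blue) and ovary (orange), from edgeR within each organ, with bars of 1 SE. The largest values are 1.03 for PAQR9 and -0.74 for the paqr6 short model, both in ovary, and genes too low to test in an organ are marked.

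The difference between organs in the response was tested as an interaction over all 22 libraries. Of the 7 genes tested, 0 passed, as did 1 of 17840 genes (0.00561%, edgeR). Pgrmc1 had the smallest p of the 7, with a response higher by 0.52 in ovary (SE 0.22, adjusted p = 0.747, edgeR), where 6.19% of all genes had an unadjusted p below 0.05. PAQR9 gave 0.90 (SE 0.52, adjusted p = 0.871, edgeR), and the other 5 lay between -0.35 and 0.27. Among these, paqr7b and paqr8 passed the filter through the organ where they are high, and rested on few reads in the other. Leaving out 1 library moved them, paqr7b from 0.27 to 1.057 without OC replicate 6 (adjusted p = 0.697, edgeR) and paqr8 from 0.21 to 1.01 without HT replicate 4 (adjusted p = 0.793, edgeR).

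The relatives of these genes were also called in both directions between the organs. The list held the nuclear receptor pgr, other PAQR genes (paqr3, paqr4 and the adiponectin receptors), the monocyte to macrophage differentiation genes and other cytochrome b5-like genes, 11 of 17 symbols being found on 13 gene models. Of 12 tested in controls, 7 were higher in ovary (background 39.2%) and 2 lower (44.3%), and in PNX-14 fish 7 were higher (39.4%) and 4 lower (45.2%). In either direction, 83.5% of all genes were called in controls and 84.6% in PNX-14 fish, so a difference between organs is the common outcome. Paqr4a was at 8.63 ± 1.37 FPKM in HC and 0.443 ± 0.321 in OC (-3.86, SE 0.35, adjusted p = 6.46e-10, edgeR). It passed the filter through the hypothalamus and not within ovary. The size of its difference therefore rests on few ovarian reads, 1 to 12 per library in OC and 4 to 6 in OT. Adipor1a, an adiponectin receptor gene, was at 27.7 ± 2.89 FPKM in HC and 8.80 ± 0.931 in OC (-1.29, SE 0.12, adjusted p = 1.21e-09, edgeR), while adipor2 was higher in ovary by 0.85 (SE 0.17, adjusted p = 0.000104, edgeR). Paqr3a (ENSTNIG00000006737), whose mammalian product tethers Raf to the Golgi, was at 15.4 ± 4.07 FPKM in HC and 61.2 ± 7.82 in OC (2.35, SE 0.17, adjusted p = 1.86e-11, edgeR). The cytochrome b5-like genes nenf (1.69, SE 0.19, adjusted p = 1.64e-08) and cyb5d2 (1.29, SE 0.15, adjusted p = 4.82e-08, edgeR) were higher in ovary, as were both pgrmc genes.

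Pgr, the nuclear progestin receptor that in fish acts in ovulation, was at 20.3 to 45.8 FPKM in OC (mean 29.1 ± 10.4) and 12.4 to 26.1 in OT (19.5 ± 5.74). The groups overlapped, and the difference of -0.60 (SE 0.28, adjusted p = 0.623, edgeR) did not pass. It was 2.02 higher in ovary than hypothalamus in controls (SE 0.54, adjusted p = 0.00158, edgeR), and its hypothalamic level was 4.53 to 24.7 FPKM (median 12.7) in the 5 hypothalami with oocyte genes at 5% or more, against 2.94 to 5.63 in the other 7. The sets overlapped, with HC replicate 1 (5.28) and HT replicate 3 (4.53) of the 5 in the range of the 7. As a percentage of the control ovary mean in FPKM, pgr was at 15.6% to 85.0% in the 5 and 10.1% to 19.4% in the 7. It was highest in HC replicate 5 (84.6%) and HT replicate 4 (85.0%), where oocyte genes were at 15.8% and 12.02% on the CPM scale. The part of egg RNA in the pgr reads was not tested. A second paqr3a model (ENSTNIG00000002066) was at 12.4 to 47.0 FPKM in OC and 0 to 15.6 in OT (-1.88, SE 0.98, adjusted p = 0.678) and at 0.652 to 10.8 in HC and 0 to 3.17 in HT (-1.61, SE 0.69, adjusted p = 0.979, edgeR). Its counts of 0 were in HT replicate 5 and OT replicates 2 and 5, where they allow up to 0.731, 0.593 and 0.457 FPKM. Of the relatives, 0 of 11 in ovary and 0 of 12 in hypothalamus passed the test for PNX-14 (all genes: 0.0135% and 0%).

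Of 13 progestin synthesis genes tested in controls, 10 were higher in ovary and 2 lower (all genes: 39.2% higher, 44.3% lower). For PNX-14, 0 of 12 in ovary and 0 of 13 in hypothalamus passed (all genes: 0.0135% and 0%). Cyp11a2, for the side-chain cleavage enzyme that opens steroid synthesis, was at 29.3 ± 13.2 FPKM in OC and 15.3 ± 3.37 in OT (-0.97, SE 0.35, adjusted p = 0.565, edgeR). In the same organ porb, the P450 reductase gene, gave 0.19 (SE 0.13, adjusted p = 0.756) and hsd17b1, an estradiol-making enzyme gene, -0.38 (SE 0.23, adjusted p = 0.719, edgeR).

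Genes of the signalling path from the receptors to the oocyte maturation switch (G proteins, adenylate cyclases, phosphodiesterases, kinases, cyclins and mos) were tested as 52 gene models between organs, of which 17 were higher in ovary and 31 lower in controls (all genes: 39.2% and 44.3%). For PNX-14, 0 of 44 passed in ovary and 0 of 51 in hypothalamus (all genes: 0.0135% and 0%). In ovary, mos, the kinase gene of oocyte meiosis, was at 214 ± 56.7 FPKM in OC and 293 ± 59.5 in OT (0.44, SE 0.22, adjusted p = 0.661), akt2 gave -0.38 (SE 0.17, adjusted p = 0.616) and adcy1a, an adenylate cyclase gene, 0.39 (SE 0.19, adjusted p = 0.66, edgeR). In hypothalamus gnai3, for an inhibitory G protein subunit, gave 0.36 (SE 0.20), gnas, for the stimulatory one, -0.26 (SE 0.13), and adcy3a 0.18 (SE 0.10), each with an adjusted p of 0.979 (edgeR).

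Known partners of the Pgrmc proteins, in sterol and P450 metabolism, were higher in ovary for 9 of 16 tested in controls and lower for 4 (all genes: 39.2% and 44.3%). Serbp1a, for the RNA-binding partner of Pgrmc1 in mammalian granulosa cells, was at 128 ± 26.3 FPKM in HC and 198 ± 41.6 in OC (0.99, SE 0.14, adjusted p = 8.53e-07, edgeR). None of 15 in either organ passed for PNX-14 (all genes: 0.0135% in ovary and 0% in hypothalamus). In ovary npc2, a cholesterol carrier gene, gave 0.31 (SE 0.22). Cyp21a2, at a low level of 0.667 ± 0.287 FPKM in OC and 0.337 ± 0.166 in OT, gave -1.01 (SE 0.48). In hypothalamus scap gave 0.25 (SE 0.12, edgeR). Of 11 steroid nuclear receptor genes, 6 were higher in ovary and 4 lower in controls (all genes: 39.2% and 44.3%), and 0 passed for PNX-14 in either organ (all genes: 0.0135% in ovary and 0% in hypothalamus).

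By a fixed measure of likeness, Pearson's r of log2 CPM over the 10 ovaries, the genes most like pgrmc2, the highest of the 8 in control ovaries, were sh2b1 (r = 0.95), gcc1 (0.94) and pigo (0.93) among 8540 genes. Over the 12 hypothalami the genes most like pgrmc1, the highest there, were dmac2l (0.92), rpl21 (0.88) and TMEM242 (0.88) among 10786 genes. The named genes have the highest of all these correlations over few libraries, so their high values come in part from that choice. The libraries also share depth and composition. Without the 2 libraries farthest from the median the correlations were 0.88, 0.91 and 0.83 in ovary and 0.69, 0.85 and 0.70 in hypothalamus.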

How the data were processed

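Poly(A) RNA libraries of 12 hypothalami and 10 ovaries were made with a directional kit. After fastp, the authors ran HISAT2 against Ensembl's puffer genome, assigned reads to genes by featureCounts, and deposited whole read counts and FPKM values. For tool versions, the strand setting and the handling of reads that match several genes, values were not given in the sources used here, so overlapping genes and near-identical copies may share counts. FPKM was set by the authors from counts, gene length and counted reads, with no correction for composition. The authors also deposited 22 columns of counts divided by size factors (a signal, not used here) and their own DESeq2 comparisons as log2 fold changes and p-values, which were not used.

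Counts were tested with edgeR 4.0.16 (quasi-likelihood, robust, TMM, filterByExpr, Benjamini-Hochberg at 0.05) in R 4.3.3: PNX-14 against control within each organ, as in the study, and organ difference and interaction over all 22 libraries, where a gene listed in 1 organ was set to 0 in the other (891 genes). A gene list was fixed for each pathway, and the genes named were all 8 receptor genes, written-out relatives and the 3 smallest p of each pathway list per organ. Cell type markers were used only to describe the libraries. Of the listed genes, 14886 in hypothalamus and 14512 in ovary carried a symbol. The 8 genes, the lists and the rules were chosen with earlier results of these data known. The relation of the 2 paqr6 models was noticed after their values were seen, so its permutation p-values are not given. Alternatives were DESeq2 1.42.0, limma-voom (limma 3.58.1), other scalings, no filter, each replicate left out, replicate number as a block, the oocyte level as a term and hypothalami under 5% oocyte level. Between organs the block joins hypothalamus and ovary of equal number, and within an organ it joins control and PNX-14 fish of equal number. The fits were tested on simulated counts. Hypothalamus and ovary were taken from the same fish, 6 per treatment, and the labels do not tie the numbers of the 2 organs together. Limits for a count of 0 cover counting error only. No sequence was used here.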

Additional observations from a re-analysis of the deposited data

Results flagged for a closer look

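Among 32 groups of libraries (8 genes in 4 groups), 5 held a highest library whose gap to the next was large against the whole range, where chance sets apart about 1 in 20 groups. The groups share libraries, so they are not independent. For the paqr6 long model these were HC replicate 6 (37.7 FPKM against 26.0 to 27.9 in the other 5) and OC replicate 6 (44.6 against 32.4 to 35.9). OC replicate 6 was also apart for paqr7b (1.56 FPKM against 0.151 to 0.520). For paqr8 it was HT replicate 4 (2.12 FPKM against 0.180 to 0.815), the PNX-14 hypothalamus with the most oocyte RNA (12.02%). For pgrmc1 it was OT replicate 2 (234 FPKM against 167 to 186), without which the ovarian difference was 0.37.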

How the results depend on the processing

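The count of receptor genes called was the same under all alternatives, 0 in ovary, 0 in hypothalamus, 0 for the interaction and 6 between organs, except that with the replicate number as a block the paqr6 short model was also called between organs in controls (0.89, adjusted p = 0.0146, edgeR), for a count of 7. The numbers did not meet the check for pairing. The correlation of deviations was above 0.1 for 2 of 5 control and 4 of 5 PNX-14 pairs between organs. It was above 0.1 for 1 of 4 pairs of ovaries and 1 of 6 of hypothalami. Between organs, the best correlation was with the own number for 3 of 5 control and 5 of 5 PNX-14 pairs. This held for 2 of 4 pairs of ovaries and 0 of 6 of hypothalami. Whether equal numbers in the organs are the same fish was not settled by this check. Over all genes, calls for PNX-14 rose from 2 to 29 (DESeq2) and 10 (replicate block) in ovary and from 0 to 4 (DESeq2) in hypothalamus, with 0 to 1 when replicates were left out in turn. Within an organ the replicate block pairs control and PNX-14 libraries of equal number, which are different fish with no stated tie. The interaction went from 1 to 23 (DESeq2) and 2 (limma-voom), with 1 to 4 on leaving out replicates. Signs turned only for differences close to 0 or with a large error: in hypothalamus, the paqr6 short model with hypothalami under 5% (0.10) and with limma-voom (0.12), paqr7b (-0.0659 to 0.0467) and pgrmc1 (-0.0335 to 0.1452) on leaving out replicates, and pgrmc2 in the interaction with hypothalami under 5% (-0.0268). The cause was not tested. Low counts, 0 to 18 reads a library for paqr5a, 2 to 26 for paqr7b in ovary and 2 to 25 for paqr8 in hypothalamus, limit what this depth can show.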
